A study of Rattus norvegicus with 48 samples.

Results

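The NF-κB transcription factor genes and the genes of their inhibitors were followed in rat brain cell cultures exposed to the HIV protein Tat, to cocaine and to 4 small molecules. The 10 genes, chosen by symbol, were the subunit genes Nfkb1, Nfkb2, Rel, Rela and Relb, the IκB family genes Nfkbia, Nfkbie, Nfkbiz and Bcl3, and the ubiquitin-editing enzyme gene Tnfaip3. They are 10 of the 30211 genes in the expression table, and all 10 were among the 15890 genes that passed the filter on low values and were tested. These genes and the gene lists used below were chosen with earlier results of these data known. Shares of all tested genes beside their counts are therefore descriptions. Mixed cultures of neurons, astrocytes and microglia came from Sprague-Dawley rat fetuses aged 18 days and were used after 3 weeks in vitro, and RNA was sequenced from 48 libraries in 16 groups of 3. The Control, Cocaine, Tat and Tat-Cocaine groups received none of the small molecules. Tat was used at 6 ng/ml over 48 h and cocaine at 25 µM over 24 h. Per the paper, cocaine was added after the 48 h of Tat, for a further 24 h. The compounds were 4OI (4-octyl itaconate, a cell-permeable itaconate ester, 250 µM), Amlexanox (an inhibitor of the kinases TBK1 and IKKε, 25 µM), Tazemetostat (an inhibitor of the histone methyltransferase EZH2, 3 µM) and Senicapoc (a blocker of the potassium channel KCa3.1, 1 µM). Each compound was given alone, with Tat and with Tat plus cocaine. The labels do not say whether the 3 libraries of a group came from separate cultures or animals, so the p-values measure the spread between these libraries.

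NF-κB is a dimer of Rel family proteins that IκB proteins hold in the cytoplasm of resting cells. Cytokines and microbial products activate the IκB kinase, IκBα is degraded, and the freed dimers enter the nucleus and switch on inflammatory genes. Among those genes are several of the pathway's own subunits and inhibitors, so their mRNA is widely read as a trace of pathway activity, and in brain cultures microglia and astrocytes are the cells best known for it.

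The sequence that NF-κB dimers bind, the κB element, was looked for in the promoters because most of the members are textbook targets of the factor. The windows came from RefSeq (build GRCr8, which is not the build of the read counts) and ran from 250 bases before to 50 bases after each gene's start. A match to the 10-base κB consensus on either strand was found in the windows of 8 of the 9 members that could be looked up, compared with 4.18% of all 33469 promoter windows of that length. The windows of 6 members are printed 5′ to 3′ on the strand of the gene, with the match in capitals, since these are the genes with the clearest changes below.
Nfkb1 (chr2:226805440-226805469, minus strand): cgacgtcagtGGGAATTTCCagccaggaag
Nfkb2 (chr1:255108339-255108373, plus strand): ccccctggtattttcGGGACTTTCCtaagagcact
Nfkbia (chr6:78597079-78597118, minus strand): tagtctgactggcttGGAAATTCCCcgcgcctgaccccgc
Nfkbiz (chr11:58251693-58251720, plus strand): gtatctttttggcctGGGAATTTCCagc
Bcl3 (chr1:88613569-88613608, minus strand): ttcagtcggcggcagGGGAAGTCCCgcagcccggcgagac
Tnfaip3 (chr1:15544022-15544061, minus strand): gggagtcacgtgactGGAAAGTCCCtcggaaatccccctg
The Nfkb1 and Nfkbiz windows held the same 10 bases. The matches of Nfkbia, Bcl3 and Tnfaip3 in capitals lay on the strand opposite to the gene. Tnfaip3 had 3 matches in its window, and its printed stretch holds another of them in small letters. Rel had 2 overlapping matches and Nfkbie had 1. The Rela window had 0, and Relb had no window to search. A match of letters is a description of the sequence and not evidence of binding.

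Sequencing depth, as recovered from the smallest step between values, was 17.5 M to 29.1 M reads per library with a median of 22.4 M. The members were covered by 24 reads (Rel, in a Tat-Cocaine-4OI library) to 10216 reads (Nfkbia, in a Tat library), and Rel rested on the fewest reads. The cultures were labelled neuron, and markers of other cells were also present: the summed level of 15 myeloid markers was 704.6 to 7654 CPM and that of 8 astrocyte markers 5445 to 13308 CPM, while 4 lymphocyte markers summed to at most 0.195 CPM. One Cocaine library stood apart, with oligodendrocyte markers at 22876 CPM against 89.7 to 1927 CPM in the others, and no comparison of the members with Cocaine changed its call without it.

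Across the 16 groups the members separated by Tat. For 8 of the 10 genes the means of all 10 groups with Tat lay above the means of all 6 groups without it, the exceptions being Rel and Rela. Nfkbiz spanned the widest range, 7.62 to 208 CPM, and its group means differed 23.7-fold between Tat, the highest, and 4OI, the lowest. The ratio of the highest to the lowest group mean was 11.1 for Bcl3, 9.09 for Tnfaip3 and 6.84 for Nfkbia, each also highest in Tat and lowest in 4OI. It was 4.73 for Nfkb2, 3.61 for Relb and 3.35 for Nfkb1, each highest in Tat-Cocaine-Tazemetostat and lowest in Senicapoc. It was 2.35 for Nfkbie, 2.23 for Rel and 1.90 for Rela. Neighbours in the order of group means mostly could not be separated: of 15 neighbouring pairs the libraries failed to overlap in 3 for Nfkbiz, in 1 each for Bcl3 and Rela, and in 0 for the other members.

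**Figure D1:**
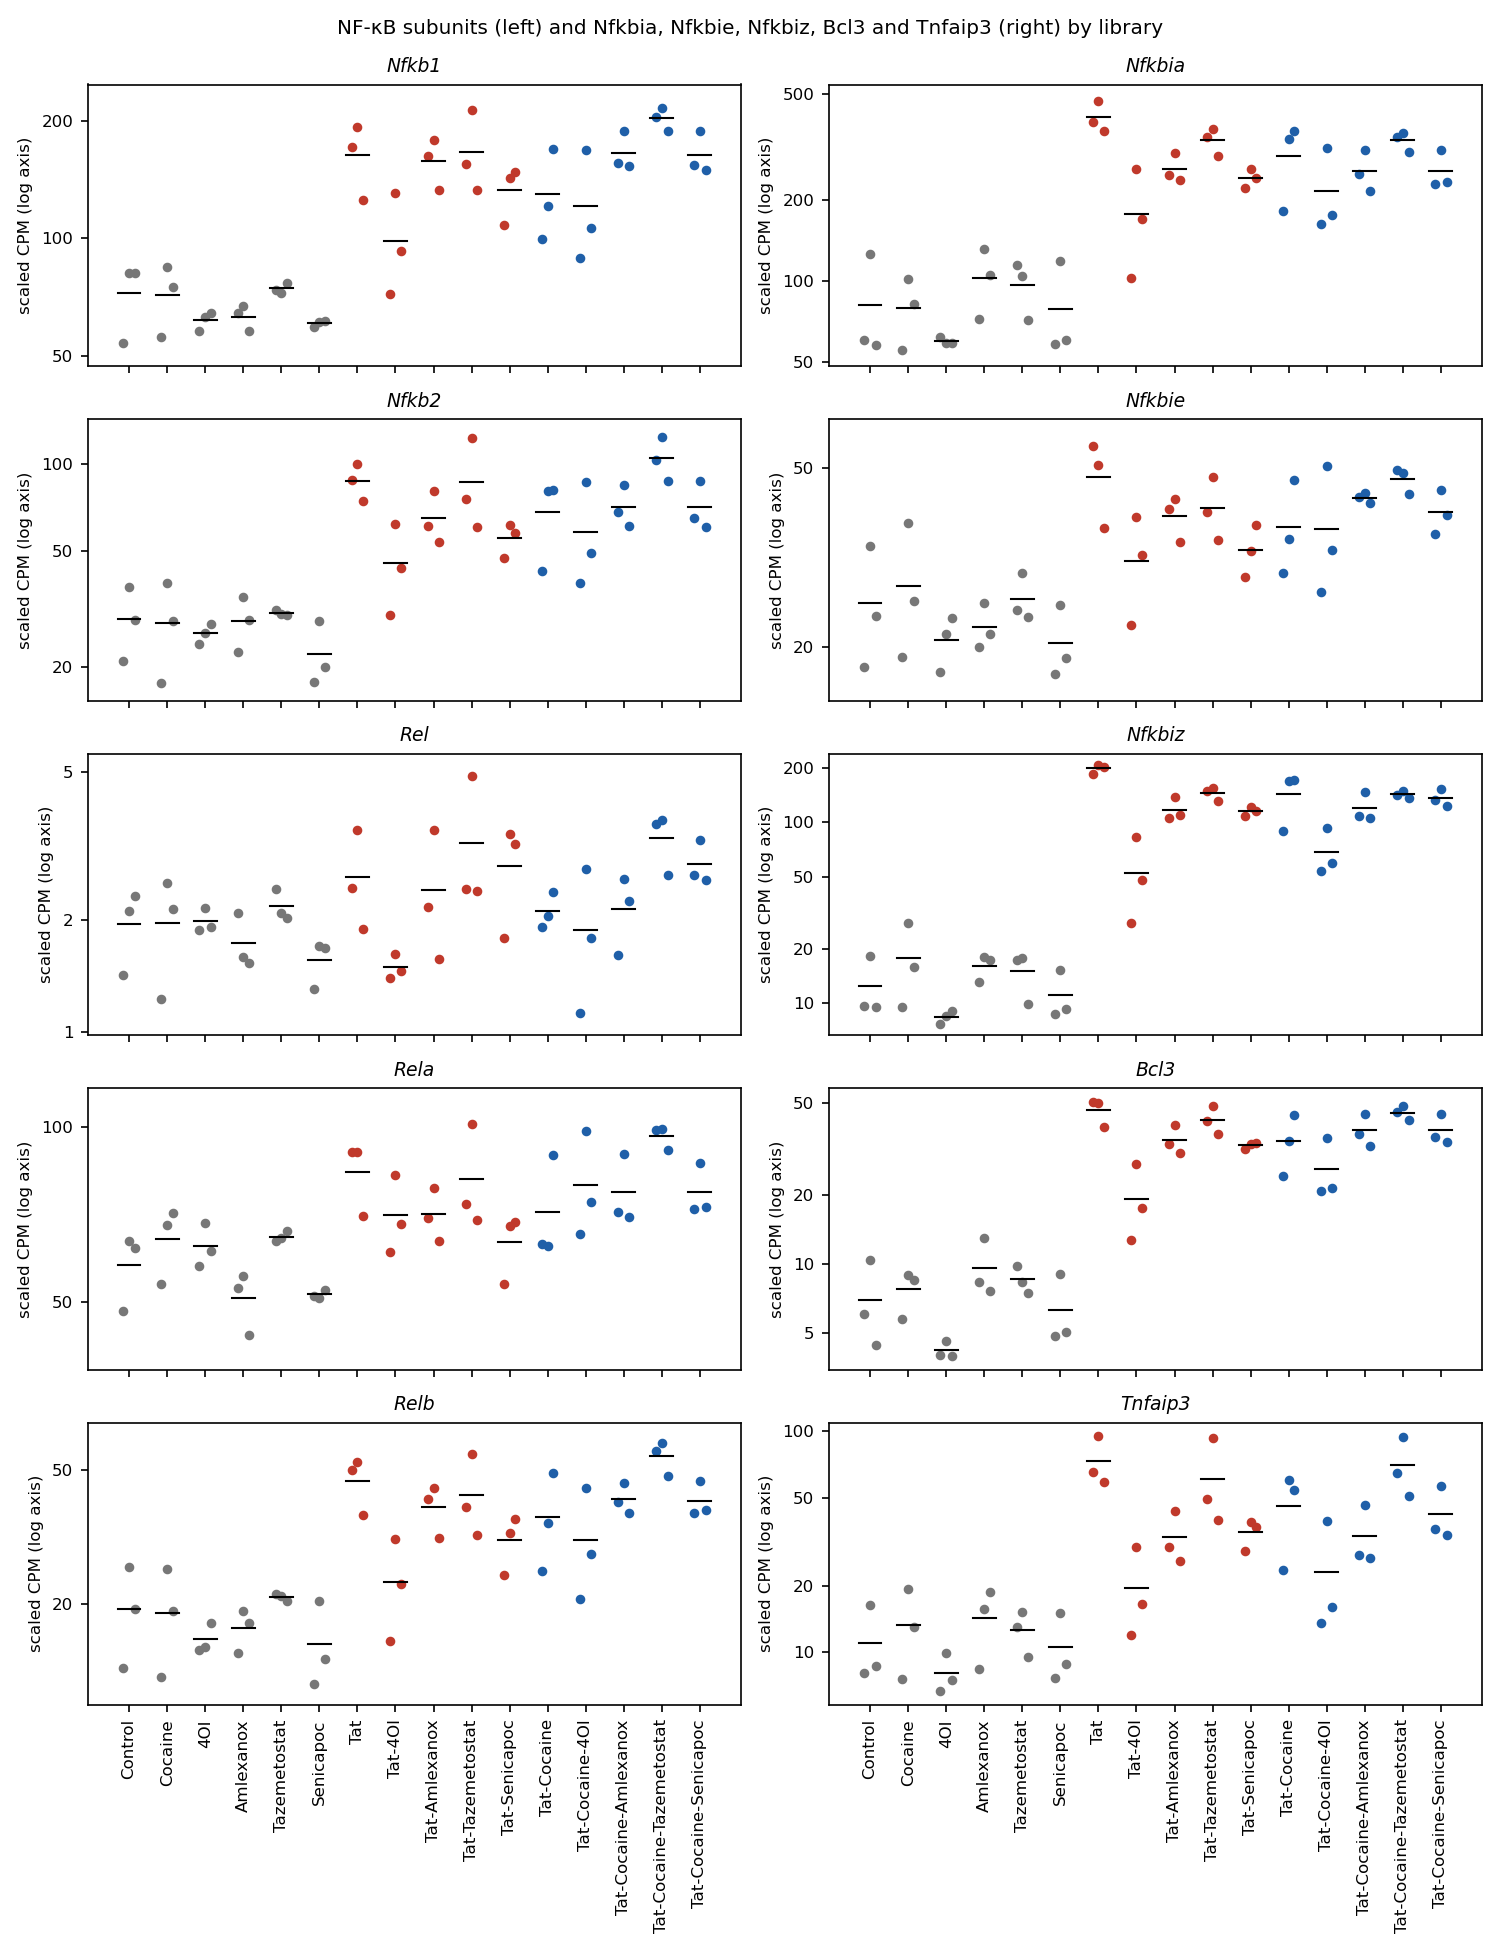
Scaled CPM (log axes) of the 10 genes in each of the 48 libraries, by group; points are libraries, black bars are means of 3, grey marks groups without Tat, red groups with Tat and blue groups with Tat and cocaine. Nfkbiz in the groups with Tat (27.8 CPM and above) does not overlap the groups without it (27.7 CPM and below), while Rel (1.12 to 4.87 CPM) shows no such separation.

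Tat raised Nfkbiz, Bcl3, Tnfaip3 and Nfkbia most. Nfkbiz, which encodes the nuclear IκBζ needed for a set of secondary inflammatory genes, was at 9.66, 18.3 and 9.53 CPM in the 3 Control libraries and at 185, 208 and 202 CPM in the 3 Tat libraries. All Tat libraries thus lay far above all Control libraries, and the log2 fold change, taken on CPM + 0.5 as throughout, was 4.00 ± 0.31 (SE), or 16-fold, with an adjusted p (limma, Benjamini-Hochberg over all tested genes) of 1.6e-11. Bcl3, a nuclear IκB protein that partners homodimers of the Nfkb1 and Nfkb2 products, went from 6.06, 10.3 and 4.45 CPM to 50.5, 50.1 and 39.5 CPM. Its log2 fold change was 2.73 ± 0.26 (adjusted p = 1.6e-09), again without overlap. Tnfaip3, which removes activating ubiquitin chains upstream of the IκB kinase, was at 8.01, 16.4 and 8.62 CPM in Control and 64.9, 94.6 and 59.0 CPM in Tat. That is a log2 fold change of 2.71 ± 0.41 (adjusted p = 8.7e-06). Nfkbia, the gene of the classical cytoplasmic inhibitor IκBα, was at 60.3, 126 and 57.6 CPM in Control and 393, 470 and 362 CPM in Tat, a log2 fold change of 2.41 ± 0.31 (adjusted p = 5.2e-07). Nfkbie, the gene of IκBε, moved least of the IκB family genes, from 18.0, 33.6 and 23.5 CPM to 56.0, 50.8 and 36.7 CPM (log2 fold change 0.94 ± 0.23, adjusted p = 0.0028).

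The log2 fold changes of the 5 subunit genes lay below those of these 4, and 1 of the 5 did not pass the test. Nfkb2, whose product is processed to p52 in the noncanonical pathway, was at 20.9, 37.7 and 29.1 CPM in Control and 87.8, 100.2 and 74.3 CPM in Tat (log2 fold change 1.59 ± 0.30, adjusted p = 0.00015). Relb, the usual partner of p52, was at 12.9, 25.7 and 19.3 CPM in Control and 49.9, 52.6 and 36.6 CPM in Tat, a log2 fold change of 1.28 ± 0.28 (adjusted p = 0.00090). Nfkb1, the source of p50, was at 54.1, 81.7 and 81.6 CPM in Control and 172, 193 and 125 CPM in Tat (log2 fold change 1.17 ± 0.21, adjusted p = 0.00012). For these 3 subunits every Tat library was above every Control library. Rela, which encodes the main transactivating subunit p65, changed least among the genes called, from 48.3, 63.6 and 61.8 CPM to 90.5, 90.6 and 70.2 CPM (log2 fold change 0.53 ± 0.16, adjusted p = 0.014). Rel, the c-Rel gene, was at 1.42, 2.11 and 2.32 CPM in Control and 2.43, 3.49 and 1.89 CPM in Tat. Its libraries overlapped, and the log2 difference of 0.33 (95% interval -0.18 to 0.85) did not pass the test (adjusted p = 0.35).

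In all, 9 of the 10 members were higher in Tat than in Control, compared with 14.6% of all tested genes called higher, and the same 9 had no overlap between the 2 groups, compared with 19.4% of tested genes. The call on Rela was lost without Tat replicate 1 (adjusted p = 0.064), without Tat replicate 2 (0.082), without Control replicate 1 (0.12), and when the fit was limited to the 21 libraries of the groups in the published study (0.058) or to Tat and Control (0.083). The call on Nfkbie was lost only in that last fit (0.069). Myeloid markers moved in the same direction: 5 of the 15 were called higher in Tat, their summed level was 1912 to 3597 CPM in Control and 2712 to 4876 CPM in Tat, and none of the 15 was at 0 in all libraries. Of 8 astrocyte markers 3 were called lower. In bulk RNA, fewer cells of a type and less RNA per cell cannot be told apart, and the part of the myeloid cells in the Tat result was not tested.

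The response to Tat was also measured within each compound, by comparing Tat plus compound with the compound alone. These 4 comparisons and Tat against Control share no library. Nfkbiz had the largest log2 fold change of the 10 genes in all 5, from 2.45 with 4OI to 4.00 without a compound, and Bcl3 was the next in all 5, from 1.83 to 2.73. Nfkbia lay between 1.38 and 2.41 and was called in all 5, and Tnfaip3 lay between 1.14 and 2.71 and was called in 4. These 4 genes were the top 4 in 4 of the 5 comparisons; with Amlexanox, Nfkb1 (1.31) stood above Tnfaip3 (1.22). Rel and Rela held the 2 lowest places in all 5, and Rel was called in 0 of them and Rela in 2.

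With Amlexanox 9 members were higher with Tat (22.6% of all tested genes were), with Tazemetostat 8 (10.4%), with Senicapoc 8 (10.8%) and with 4OI 3 (3.08%). With 4OI 0 of the 15 myeloid markers were called, and their summed level was 1134 to 2738 CPM in 4OI and 1065 to 2511 CPM in Tat-4OI; with Amlexanox, Tazemetostat and Senicapoc 6, 3 and 6 were called higher. Astrocyte markers were called lower in 2 of 8 with 4OI, 4 with Tazemetostat and 1 with Senicapoc and higher in 2 with Amlexanox, where 4 of 10 neuronal markers were also lower, 2 of 4 mesenchymal markers higher and 1 lower. Their part in these responses was not tested. The 3 members called with 4OI were Nfkbiz (2.45 ± 0.31, adjusted p = 3.3e-06), Bcl3 (2.00 ± 0.26, 5.8e-06) and Nfkbia (1.46 ± 0.31, 0.0037). Under 4OI, Nfkb1, Nfkb2 and Tnfaip3 had no overlap between libraries with and without Tat but did not pass (adjusted p = 0.081, 0.15 and 0.10), where 15.7% of tested genes were higher without overlap. Rel pointed the other way there, with 1.39, 1.61 and 1.46 CPM in Tat-4OI below 1.88, 2.16 and 1.92 CPM in 4OI, although the log2 difference of -0.32 did not pass (adjusted p = 0.55) and 13.9% of tested genes were lower without overlap. Several of these calls turned on 1 library: Nfkbia with 4OI was lost without Tat-4OI replicate 2 (adjusted p = 0.072), Tnfaip3 with Amlexanox without Amlexanox replicate 1 (0.11) or Tat-Amlexanox replicate 2 (0.097), and Relb with Tazemetostat without Tat-Tazemetostat replicate 2 (0.16). Relb with Senicapoc was lost without Senicapoc replicate 1 (0.082) or Tat-Senicapoc replicate 3 (0.064), and Rela with Amlexanox without Amlexanox replicate 3 (0.11) or Tat-Amlexanox replicate 2 (0.088). Nfkbie was the least stable call, lost without 5 of the 6 libraries with Tazemetostat and without 4 of the 6 with Senicapoc.

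**Figure D2:**
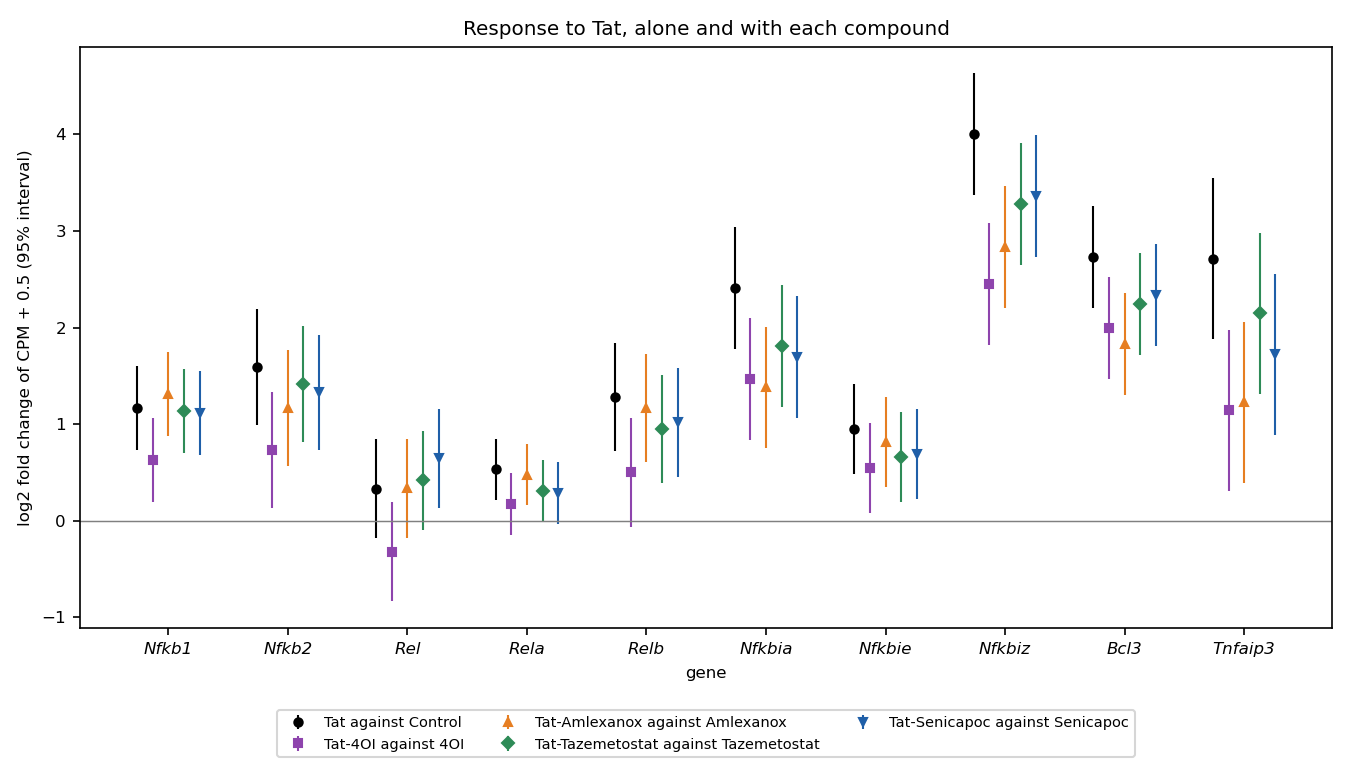
Log2 fold change (CPM + 0.5) of the 10 genes for Tat against Control and for Tat plus each compound against that compound; points are estimates from 3 libraries against 3 and bars 95% intervals. Nfkbiz is the highest point of each series (2.45 to 4.00), and Rel (-0.32 to 0.64) and Rela (0.17 to 0.53) are the lowest.

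None of the members passed the test with cocaine alone. The log2 differences from Control ran from -0.07 (Nfkb2) to 0.43 (Nfkbiz), 0 of the 10 members were called by limma and 0 had an unadjusted p under 0.05, compared with 0.201% of all genes called in either direction. For Nfkbiz the Cocaine libraries were at 9.53, 27.7 and 15.9 CPM and the 95% interval of the log2 difference was -0.21 to 1.06.

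With Tat and cocaine together, 7 members were higher than in Control (8.63% of all tested genes were). Nfkbiz was at 89.9, 169 and 171 CPM (log2 fold change 3.48 ± 0.31, adjusted p = 1.2e-09), Bcl3 at 24.0, 34.3 and 44.5 CPM (2.26 ± 0.26, 1.2e-07) and Nfkbia at 182, 338 and 361 CPM (1.88 ± 0.31, 5.0e-05). Replicate 1 was the lowest library of the group for these and for 9 of the 10 members in all. Tnfaip3 (1.97 ± 0.41), Nfkb2 (1.19 ± 0.30), Relb (0.89 ± 0.28) and Nfkb1 (0.83 ± 0.21) were also called, while Nfkbie (0.57), Rela (0.29) and Rel (0.11) were not (adjusted p = 0.089, 0.22 and 0.82). Nfkbie passed when the replicate number was a block over all 48 libraries (adjusted p = 0.024). Same-numbered libraries of these 2 groups deviated together (every correlation over 0.1), but the labels give no pairing. Nfkbie also passed without Control replicate 2 (0.025). Relb was lost without Control replicate 1 (0.18), Control replicate 3 (0.054), Tat-Cocaine replicate 2 (0.063) or Tat-Cocaine replicate 3 (0.17), and Nfkb1 without Control replicate 1 (0.070) or Tat-Cocaine replicate 3 (0.079). Fitting only these 2 groups left 3 members called. Of the 15 myeloid markers 0 were called in this comparison (3 had an unadjusted p under 0.05), and their summed level was 2108 to 3504 CPM in Tat-Cocaine. Of 8 astrocyte markers 3 were called lower, the largest difference being -2.25, and of 4 mesenchymal markers 1 was called higher (median 1.10); their part in the result was not tested.

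Compared with Tat alone, all 10 log2 differences of Tat-Cocaine were negative, from -0.22 (Rel) to -0.74 (Tnfaip3), but 0 members were called (0.0189% of all genes were in either direction) and 0 had an unadjusted p under 0.05. Nfkbia and Nfkbiz had no overlap between the 2 groups, compared with 6.19% of tested genes lower without overlap. Averaged over the 5 backgrounds in which cocaine was added to Tat (no compound and each compound), the differences were near 0, from -0.03 (Nfkbia) to 0.18 (Relb), and 0 members were called or had an unadjusted p under 0.05 (4.55% of all genes were called). The interval for Nfkbiz in that average was -0.25 to 0.32. If the cultures with Tat and no cocaine were taken at 48 h, cocaine and the further 24 h cannot be told apart in these comparisons.

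With 4OI in the absence of Tat no member passed the test: 0 were called (3.15% of all genes were), and only Bcl3 had an unadjusted p under 0.05. Bcl3 was at 4.01, 4.61 and 3.96 CPM in 4OI, a log2 difference from Control of -0.59 (95% interval -1.12 to -0.06, adjusted p = 0.30). Nfkbiz, at 7.62, 8.50 and 9.01 CPM, was below all 3 Control libraries (-0.49, adjusted p = 0.57), as were 6.04% of tested genes.

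Added to Tat, 4OI lowered 7 of the 10 members, compared with 9.48% of all tested genes called lower. Nfkbiz was at 27.8, 82.5 and 47.7 CPM in Tat-4OI against 185 CPM and above in Tat, so the libraries were well apart, and it fell by 2.04 on the log2 scale (SE 0.31, adjusted p = 2.2e-05). Tnfaip3, at 11.9, 29.7 and 16.5 CPM, fell by 1.95 (SE 0.41, adjusted p = 0.0011), and Bcl3, at 12.6, 27.2 and 17.6 CPM, fell by 1.33 (SE 0.26, adjusted p = 0.00059). Nfkbia was at 102, 260 and 170 CPM, below every Tat library, and fell by 1.29 (SE 0.31, adjusted p = 0.0041). Among the subunits, Relb (15.5, 31.1 and 22.9 CPM) fell by 1.02 (SE 0.28, adjusted p = 0.011) and Nfkb2 (30.3, 62.3 and 43.9 CPM) by 0.99 (SE 0.30, adjusted p = 0.021). Nfkb1, at 72.1, 131 and 93.1 CPM, fell by 0.74 (SE 0.21, adjusted p = 0.016), although 1 of its Tat-4OI libraries lay within the Tat range. Nfkbie (-0.63), Rel (-0.61) and Rela (-0.25) did not pass (adjusted p = 0.057, 0.092 and 0.28). Rel was nevertheless at its lowest group mean here, and its 3 Tat-4OI libraries lay below the 3 Tat libraries. In all, 7 members were lower without overlap, compared with 17.2% of tested genes.

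In all 3 Tat-4OI libraries Nfkbiz thus stayed above the Control libraries, and replicate 1 was the lowest and replicate 2 the highest of the group for all 10 members. The calls on Nfkbiz, Bcl3 and Tnfaip3 held without any of the 6 libraries and under all 10 other settings tried. The others were less stable, and the number of members called depended on the library left out: for Tat it was 5, 4 and 9 in the absence of replicates 1, 2 and 3, and for Tat-4OI it was 3, 8 and 5. It was 3 when only Tat and Tat-4OI were fitted and 4 in the 21 libraries of the published groups. Myeloid markers were lower as well: 6 of the 15 were called lower, with a median log2 difference of -1.13 beside one of 0.00 for all tested genes. The summed myeloid level was 1065 to 2511 CPM in Tat-4OI and 2712 to 4876 CPM in Tat. All 10 neuronal markers had a positive difference (median 0.59, 0 called), and 4 had an unadjusted p under 0.05, as did 4998 of all 15890 tested genes. The summed neuronal level was 3145 to 4030 CPM against 1505 to 2852 CPM in Tat. Of 8 astrocyte markers 1 was called higher and of 4 mesenchymal markers 1 lower. The part of these cell types in the result was not tested.

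Nfkbiz was also set against the myeloid markers library by library. In Tat-4OI replicates 1, 2 and 3 the summed markers were 1617, 2511 and 1065 CPM, beside Nfkbiz at 27.8, 82.5 and 47.7 CPM, so replicate 2 was the highest for both and the lowest library differed. Cocaine replicate 2, the highest of the libraries without Tat for both, had a myeloid sum of 5399 CPM and Nfkbiz at 27.7 CPM. Tat-Cocaine went the other way, with myeloid sums of 3504, 2108 and 3173 CPM beside Nfkbiz at 89.9, 169 and 171 CPM. There replicate 1 was the highest for the markers and the lowest for Nfkbiz. Within groups, the deviations of the members from their group means correlated with those of the summed markers over the 48 libraries. The r was 0.62 (Nfkb1) to 0.75 (Tnfaip3). Both values of a point come from the same library and share its depth and culture. What part myeloid cells have in these levels was not tested.

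**Figure D3:**
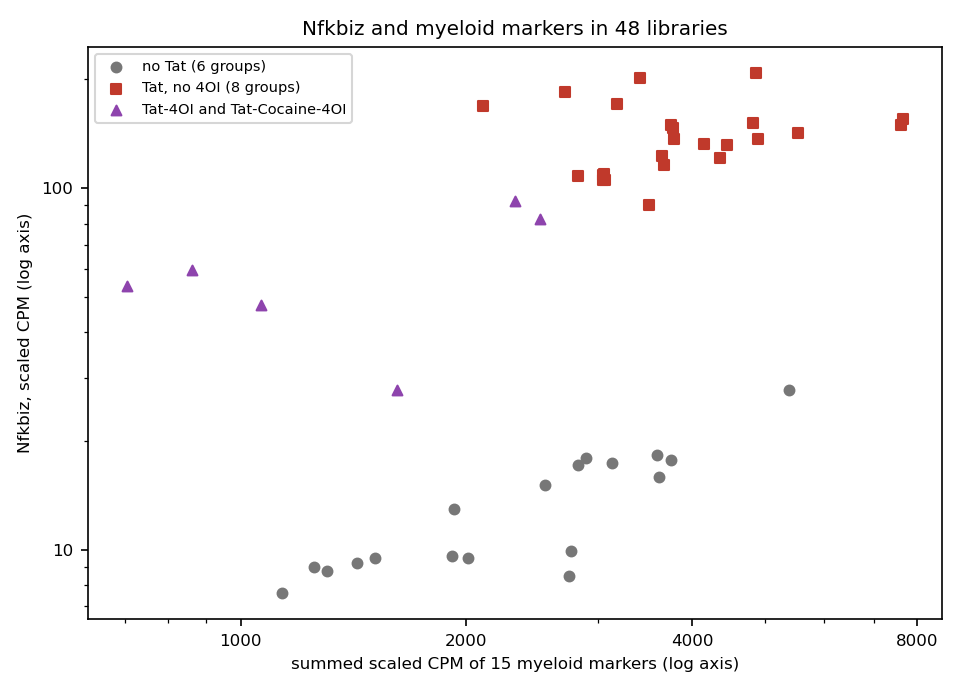
Nfkbiz (scaled CPM, log axis) against the summed scaled CPM of 15 myeloid markers (log axis) in the 48 libraries; grey circles are the 6 groups without Tat, red squares the 8 groups with Tat and no 4OI, and purple triangles Tat-4OI and Tat-Cocaine-4OI. On the Nfkbiz axis all libraries with Tat (27.8 CPM and above) lie above all those without (27.7 CPM and below). The triangles lie lower on both axes than most squares. The part of myeloid cells was not tested.

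When cocaine was present too, fewer members passed the test with 4OI; the difference between the 2 effects of 4OI was not tested. In Tat-Cocaine-4OI against Tat-Cocaine 1 member was lower (3.29% of all tested genes were): Nfkbiz, at 53.7, 92.5 and 59.4 CPM, fell by 1.04 on the log2 scale (SE 0.31, adjusted p = 0.035). Its libraries overlapped those of Tat-Cocaine at 1 library, and the call was lost without either of Tat-Cocaine replicates 2 (0.15) and 3 (0.12) or Tat-Cocaine-4OI replicates 1 (0.12) and 3 (0.13). Tnfaip3, at 13.6, 39.4 and 16.01 CPM, had about the same log2 difference, -1.03 (95% interval -1.86 to -0.20), and did not pass (adjusted p = 0.13); without Tat-Cocaine replicate 1 (0.049) or Tat-Cocaine-4OI replicate 2 (0.028) it did. The other 8 members lay between -0.43 (Nfkbia) and 0.15 (Rela). Replicate 2 of Tat-Cocaine-4OI was the highest library of its group for all 10 members, and it also had the highest myeloid sum of the group, 2320 CPM against 704.6 and 861 CPM. Of the 15 myeloid markers 5 were called lower, of 8 astrocyte markers 4 higher (median log2 difference 0.54) and of 4 mesenchymal markers 2 lower (median -1.26), and the part of these cell types in the result was not tested.

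Whether the response to Tat itself differed with 4OI was tested as the difference of the 2 Tat effects. All 10 estimates were negative, from -0.36 (Rela) to -1.57 (Tnfaip3), and 0 passed, while 0.497% of all genes were called. An unadjusted p under 0.05 was found for 4 members and for 1896 of all 15890 tested genes. Nfkbiz came closest, at -1.55 (95% interval -2.44 to -0.66, adjusted p = 0.098), and it passed without Tat-4OI replicate 2 (adjusted p = 0.020).

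With Amlexanox, Tazemetostat or Senicapoc added to Tat, 0 members were called. With Amlexanox all 10 differences from Tat were negative, and 0.837% of all genes were called in either direction. Among all 15890 tested genes 1988 had an unadjusted p under 0.05, and 9.69% were lower without overlap. Of the members, 3 had an unadjusted p under 0.05 and no overlap of libraries. These were Tnfaip3, at 29.8, 43.6 and 25.7 CPM (log2 difference -1.13, 95% interval -1.97 to -0.30, adjusted p = 0.20), Nfkbiz, at 106, 137 and 110 CPM (-0.76, interval -1.39 to -0.13, adjusted p = 0.28), and Nfkbia, at 249, 300 and 237 CPM (-0.64, interval -1.27 to -0.01, adjusted p = 0.39). Same-numbered libraries of Tat and Tat-Amlexanox deviated together (every correlation over 0.1), but the labels give no pairing. With the replicate number as a block over all 48 libraries Tnfaip3 passed (adjusted p = 0.0046). Nfkb1, by contrast, stood at 162, 179 and 133 CPM, nearly at its Tat level (-0.04, interval -0.47 to 0.40). Of the 15 myeloid markers 0 were called and their median log2 difference was -0.19. The difference of the Tat responses with and without Amlexanox was called for 0 members (1.84% of all genes were). An unadjusted p under 0.05 was found for 2895 of all 15890 tested genes and for 4 members. The 4 were Tnfaip3 (-1.49), Nfkbiz (-1.17), Nfkbia (-1.03) and Bcl3 (-0.90). Without Amlexanox replicate 1, Tnfaip3 passed (adjusted p = 0.048).

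Senicapoc added to Tat gave 9 negative differences of 10, and 7 members had libraries entirely below those of Tat (13.6% of tested genes did). Also 7 had an unadjusted p under 0.05, as did 2909 of all 15890 tested genes. None of the members passed, and 0.409% of all genes were called. Tnfaip3 was at 28.7, 38.9 and 36.7 CPM (-1.04, 95% interval -1.87 to -0.20, adjusted p = 0.19), Nfkbiz at 108, 121 and 116 CPM (-0.78, interval -1.41 to -0.15, adjusted p = 0.19) and Rela at 53.7, 67.5 and 68.7 CPM (-0.40, interval -0.72 to -0.08, adjusted p = 0.19). Rel was the exception, at 0.08. The summed myeloid level was 2817 to 4366 CPM, within the range of Tat. Neuronal markers were higher: 9 of 10 had an unadjusted p under 0.05 (0 were called, median log2 difference 0.71), and their summed level was 3631 to 4456 CPM against 1505 to 2852 CPM in Tat, without overlap. Their part in these differences was not tested. With Tazemetostat the differences from Tat ran from -0.45 (Nfkbiz) to 0.23 (Rel), with 0 members at an unadjusted p under 0.05 and 0 of all 15890 genes called.

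Without Tat, Amlexanox, Tazemetostat and Senicapoc gave 0 called members each and 0 at an unadjusted p under 0.05, where 11.4%, 0% and 0% of all genes were called. The differences from Control ran from -0.19 (Rela) to 0.48 (Bcl3) with Amlexanox, from 0.06 to 0.35 with Tazemetostat and from -0.38 to -0.03 with Senicapoc. The difference between the Tat responses with and without Tazemetostat or Senicapoc was called for 0 members and 0 of all genes, with 0 members at an unadjusted p under 0.05.

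**Figure D4:**
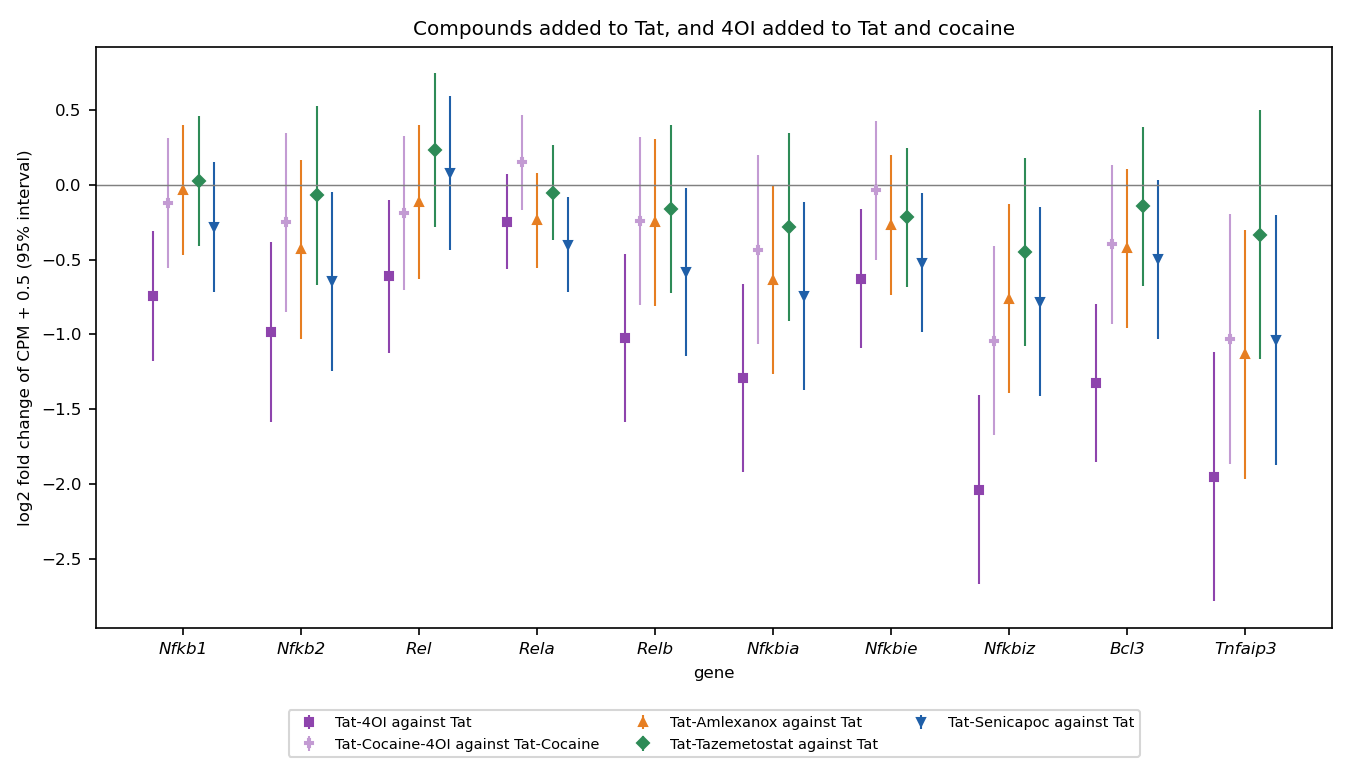
Log2 difference (CPM + 0.5) of the 10 genes between Tat plus each compound and Tat, and between Tat-Cocaine-4OI and Tat-Cocaine; points are estimates from 3 libraries against 3 and bars 95% intervals. For 7 genes the Tat-4OI point (-0.74 to -2.04) was called lower, and the points of the other compounds on Tat were not called.

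On the background of Tat and cocaine, Tazemetostat gave 10 positive differences and 2 calls. For 10 members that count was near the share of all tested genes called higher, 15.2%. Nfkb1 rose from 99.8, 121 and 169 CPM to 205, 215 and 188 CPM (log2 fold change 0.67 ± 0.21, adjusted p = 0.022), and Rela from 62.8, 62.3 and 89.3 CPM to 98.8, 99.2 and 91.1 CPM (0.45 ± 0.16, adjusted p = 0.033). In both genes the libraries did not overlap, as in Nfkb2 and Rel, which did not pass (adjusted p = 0.086 and 0.099); 24.8% of tested genes were higher without overlap. Nfkbiz, at 142, 149 and 137 CPM, was level with Tat-Cocaine (0.05, 95% interval -0.58 to 0.68). Both calls were lost without Tat-Cocaine replicate 1 (adjusted p = 0.15 and 0.16), Tat-Cocaine replicate 2 (0.078 and 0.15), Tat-Cocaine-Tazemetostat replicate 1 (0.053 and 0.078) or Tat-Cocaine-Tazemetostat replicate 2 (0.096 and 0.11). In the same comparison 8 of 15 myeloid markers were called higher and 8 of 10 neuronal, 3 of 6 oligodendrocyte, 2 of 4 mesenchymal, 1 of 8 astrocyte and 1 of 3 endothelial markers lower, and the summed myeloid level was 4897 to 7604 CPM against 2108 to 3504 CPM in Tat-Cocaine; their part in the result was not tested. Amlexanox and Senicapoc on the same background gave 0 called members and 0 at an unadjusted p under 0.05 (0.925% and 0.0441% of all genes were called), with differences of -0.39 to 0.38 and -0.14 to 0.36.

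The members varied together. Over the 16 group means the 45 pairs of members correlated at r = 0.66 (Rel with Nfkbiz) to 0.99 (Nfkbiz with Bcl3), with a median of 0.96, compared with a median of 0.00 and a 95th percentile of 0.90 between the members and all tested genes. Within groups, over the deviations of the 48 libraries from their group means, the median was 0.81 (range 0.47 to 0.95) and the values with all tested genes had a median of 0.02 and a 95th percentile of 0.71. Those points share the treatments in the former case, and library depth and culture in the latter, so the values are descriptions.

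The 3 genes whose group means followed each member most closely were then listed, which says nothing of shared function or control. Birc3, which encodes a ubiquitin ligase of the TNF receptor complex, was closest to Bcl3 (r = 0.998 over 16 group means) and to Nfkbiz (0.995) and followed Bcl3 and Birc2 in the list for Nfkbia (0.992). Nfkb2 was closest to Relb (0.989), then Tnip1 and Zmynd15. Relb followed Nfkb1 (0.989), Nfkb2 and Icam1, the gene of a leukocyte adhesion molecule. Nfkbie followed Relb (0.984), Bicc1 and Gcnt2, and Nfkb1 followed Diaph1 (0.991), Cd14, a lipopolysaccharide co-receptor of myeloid cells, and Il7. Tnfaip3 followed Piezo1 (0.987), Ptges and Map3k8. Rela was closest to Vps35l (0.986), Ercc3 and Slc25a39, and Rel to Arhgap27 (0.951), Tmem144 and Clcn5. Completing these lists, Aldh1l2 (0.997) and Nfkbiz were next after Birc3 for Bcl3, and Bcl3 (0.994) and Serping1 for Nfkbiz.

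The wider pathway was read from 30 genes of kinases, adaptors, ubiquitin ligases and regulators, of which 29 were tested. In Tat against Control 16 rose and 0 fell, with a median log2 difference of 0.41 (0.01 for all tested genes, of which 14.6% rose). The 5 with the lowest adjusted p were negative regulators or ubiquitin ligases of the pathway. Zc3h12a, an endoribonuclease that cuts inflammatory mRNAs, went from 7.12 ± 2.20 to 58.3 ± 10.2 CPM (SD, 3 libraries; adjusted p = 2.3e-09), and Birc2 from 58.7 ± 11.9 to 297 ± 38.8 CPM (3.9e-08). Birc3 went from 9.57 ± 5.56 to 178 ± 41.4 CPM (1.6e-07), and Tnip1, which works with the Tnfaip3 product, from 74.7 ± 15.2 to 365 ± 93.3 CPM (5.9e-07). Tnip3, a relative of Tnip1, was nearly silent in Control at 0.0455 ± 0.0494 CPM and reached 9.07 ± 5.31 CPM in Tat (5.8e-08). Its means in the groups without Tat were 0.0149 to 0.108 CPM, below the 0.5 CPM of the filter. It thus entered the test only through groups with Tat. Its adjusted p and its place in the counts of this paragraph are descriptions. Against Control, Tat-Cocaine raised 11 and lowered 0 (8.63% of all tested genes rose), and Cocaine changed 0 (2 had an unadjusted p under 0.05, and 0.201% of all genes were called). Of the 29, 4OI added to Tat lowered 10 and raised 0 (median -0.30, with 9.48% of all genes lower), among them the same 5 genes, with Tnip3 back to 0.323 ± 0.195 CPM. In Tat-Cocaine-4OI against Tat-Cocaine 1 of the 29 was lower, a share near the 3.29% of all tested genes.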

How the data were processed

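Total RNA was sequenced from 48 libraries, 3 in each of 16 groups. Per the methods of the study, reads were aligned with STAR, uniquely mapped reads were counted per gene with featureCounts, and the authors scaled the counts by TMM; the methods and the submitters' notes (Trim Galore 0.4.5, STAR 2.7.2, SAMtools 1.5, Subread 1.5.3) name different rat builds. The authors deposited 1 table whose values are a signal, CPM scaled by TMM, summing to 930400 to 1046900 per library. It also holds group means and the authors' 36 comparisons (fold changes, p-values), which were not used. Since 84.9% to 87.3% of values above 0 were whole reads within 0.02 read, counts were not recovered, and the design's choice for scaled values was used: limma 3.58.1 (R 4.3.3), lmFit and eBayes with trend on log2(CPM + 0.5), 1 mean per group, all 48 libraries, genes at 0.5 CPM or more (8.58 to 15.0 reads) in at least 3 libraries, Benjamini-Hochberg per comparison, threshold 0.05. There were 25 comparisons. With 3 libraries on each side, the smallest p of an exact permutation test is 0.1. The script was tested on simulated data. Intervals cover the spread between libraries.

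All 10 members were tested in every comparison, but several comparisons name only some of them and give the rest as counts or ranges. Also named are the 3 genes most like each member and the 5 pathway genes of lowest adjusted p. The members and lists were chosen with earlier results of these data known. Among 48 within-group pairs of libraries 0 were identical. Same-numbered libraries deviated together (every correlation over 0.1) in 27 of 120 pairs of groups, among them Control with Tat-Cocaine and Tat with Tat-Amlexanox, and not Tat with Control or Tat-4OI. Alternatives were other pseudocounts, filters, scalings, fits to fewer groups, eBayes without trend, the replicate block and leaving out each library.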

Additional observations from a re-analysis of the deposited data

How the results depend on the processing

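No member changed sign of a called difference under any alternative. Of 2320 member values under other settings 44 changed their call (25 lost, 19 gained), and of 1980 with 1 library left out 60 did (49 lost, 11 gained). The pseudocount, eBayes without trend and stricter filter changed no call. In the fit to the compared groups only, the number of members called was 3 for Tat-Cocaine against Control, 3 for Tat-4OI against Tat, 0 for Tat-Cocaine-4OI against Tat-Cocaine and 1 for Tat-Cocaine-Tazemetostat against Tat-Cocaine. In the 21 libraries of the published groups it was 4 for Tat-4OI against Tat and 0 for Tat-Cocaine-4OI, and with no filter it was 0 for Tat-Cocaine-4OI. With the replicate block it was 2 for Tat-Cocaine-4OI, 6 for Tat-4OI against 4OI, 2 for the Tat response with 4OI minus without (Nfkbiz and Tnfaip3), 1 for Tat-Amlexanox against Tat, 2 for the Tat response with Amlexanox minus without, 6 for Tat-Cocaine-Tazemetostat and 2 for Tat-Senicapoc against Tat; in most of these the numbers do not pair the libraries, and the block raised the count of calls over all genes too, from 3382 to 4253 in Tat against Control and by over 1.5 times in others: 65 to 646 for Tat-Senicapoc and 133 to 493 for Tat-Amlexanox against Tat, 0 to 16 for Tat-Tazemetostat and 3 to 16 for Tat-Cocaine against Tat, 823 to 1426 for Tat-4OI against 4OI, 723 to 1150 for cocaine over 5 backgrounds, 32 to 95 for Cocaine and 0 to 15 for Senicapoc against Control, 147 to 338 and 7 to 18 for Tat-Cocaine-Amlexanox and Tat-Cocaine-Senicapoc, and 79 to 233 and 292 to 693 for the Tat response with 4OI and with Amlexanox. With quantile and median ratio scaling the count for Tat-Senicapoc against Tat was 31 and 23. With 1 library left out, the count was 8 to 9 for Tat against Control, 5 to 8 for Tat-Cocaine against Control, 3 to 9 for Tat-4OI against Tat, 0 to 2 for Tat-Cocaine-4OI, 2 to 4 for Tat-4OI against 4OI, 7 to 9 for Tat-Amlexanox against Amlexanox, 6 to 8 for Tat-Tazemetostat against Tazemetostat, 6 to 9 for Tat-Senicapoc against Senicapoc, 0 to 3 for Tat-Cocaine-Tazemetostat, and 0 to 1 for the Tat response with 4OI and with Amlexanox minus without. The cause of these changes was not tested. Rel had the fewest reads, 24 to 91 per library.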

Other observations

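A list of 22 well-known NF-κB target genes (cytokines, chemokines, adhesion molecules and enzymes), of which 20 were tested, was read beside the members. In Tat against Control 15 rose and 0 fell, with a median log2 difference of 2.11 (14.6% of all tested genes rose), and in Tat-Cocaine against Control 15 rose and 0 fell (1.62, with 8.63% of all genes). Tat raised 13 of them with Amlexanox (22.6% of all genes), 15 with Tazemetostat (10.4%), 12 with Senicapoc (10.8%) and 9 with 4OI (3.08%). Added to Tat, 4OI lowered 7 and raised 0 (median -1.17, beside 0.00 for all tested genes, of which 9.48% fell), while Amlexanox, Tazemetostat and Senicapoc changed 0. With these 3 compounds 6, 0 and 7 targets had an unadjusted p under 0.05, beside 1988, 851 and 2909 of all 15890 tested genes. Cocaine alone changed 0, with 1 at an unadjusted p under 0.05.

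Within groups, the same library was often highest or lowest for nearly all members. Replicate 2 was the highest library for all 10 members in Tat-Amlexanox, Tat-Tazemetostat, Tat-4OI, Tat-Cocaine-Amlexanox, Tat-Cocaine-4OI and Tat-Cocaine-Senicapoc, and for 9 in Control, Cocaine and Tat-Cocaine-Tazemetostat. Replicate 1 was the lowest for all 10 in Cocaine, Tat-4OI, Tat-Senicapoc and Tat-Cocaine-4OI, and for 9 in Senicapoc. Replicate 3 was the lowest for all 10 in Tat-Tazemetostat and Tat-Cocaine-Tazemetostat. It was the lowest for 9 in Tat, Tat-Amlexanox and Tat-Cocaine-Amlexanox, and for 8 in Tazemetostat. In Tat-Cocaine replicate 1 was the lowest and replicate 3 the highest, each for 9 members. The cause was not tested.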
